A study of Mus musculus with 8 samples.

Results

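The NKT-like cells described here are liver cells that carried transcripts of both the T cell receptor complex and Klrb1c, the gene of the NK1.1 receptor (Nkrp1c). Among barcodes with more than 500 genes and under 25% of UMIs (unique molecular identifiers, 1 per captured RNA molecule) from mitochondrial genes, a cell was taken when it had at least 1 Klrb1c UMI and at least 3 UMIs of Cd3d, Cd3e and Cd3g summed, no UMI of Cd79a (B cells) or Csf1r (macrophages), and at most 1 UMI of Trdc (gamma-delta T cells). This gave 1660 of 80474 kept cells. The cells were chosen by their measured UMIs of these genes, so those values and the number of cells found are given as a description without a test. The study compared single-cell suspensions of whole liver from wild-type C57BL/6 mice, with 1 library a mouse made with the 10x Genomics 3' kit (V3). The 2 control mice received a normal diet and drinking water. Non-alcoholic steatohepatitis (NASH) with fibrosis was modelled in 3 mice on a high-fat diet (HFD+F+CCl4) and 3 mice on a western diet (WD+F+CCl4), and all 6 of these NASH mice also received fructose solution and intraperitoneal carbon tetrachloride, a hepatotoxin that the controls did not receive. Diet, fructose and toxin therefore differ together between NASH and control mice and cannot be told apart.

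Natural killer T cells are T cells that carry receptors of natural killer (NK) cells. The invariant kind recognises lipids on CD1d through a T cell receptor with a fixed alpha chain, depends on the transcription factor PLZF (Zbtb16), and releases interferon-gamma or interleukin-4 within hours of activation. In the mouse liver these cells patrol the sinusoids, where the receptor CXCR6 and interleukin-15 signals through IL-2R beta (Il2rb) keep them. Activated conventional T cells can also express Klrb1c, and a gate on Klrb1c and CD3 transcripts does not separate them from the invariant kind.

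The label was set against genes that the rule did not use. All 8 mice had Xcl1, Cxcr6, Il2rb and Tbx21 in these cells, but cells without Klrb1c or without CD3 had them too, so their presence does not check the label. Xcl1, a chemokine that attracts cross-presenting dendritic cells, stood at 409 and 403 CPM (UMIs of the gene per 1000000 UMIs summed over the cells of a mouse) in control replicates 1 and 2, at 344, 600 and 473 CPM in the HFD+F+CCl4 mice, and at 683, 961 and 288 CPM in the WD+F+CCl4 mice. The groups overlapped. In the NASH mice Xcl1 was at 120 to 449 CPM in T cells without Klrb1c and at 1471 to 3411 CPM in cells with Klrb1c but no CD3, above NKT-like cells. Zbtb16 was low, with 68.0 and 65.4 CPM in the control mice, 86.0, 27.8 and 34.0 CPM in the HFD+F+CCl4 mice, and 10.2, 9.20 and 0 CPM in the WD+F+CCl4 mice. The segments of the invariant alpha chain, which were chosen after their values were seen, gave few UMIs: Trav11 had 32 UMIs among 5067216 in control NKT-like cells and 2 among 1326928 in those of NASH mice, and Traj18 had 23 and 0 UMIs. Klrb1c-negative T cells had them as well, with 39 UMIs of Trav11 and 21 of Traj18 among 7640068 in the control mice, and Zbtb16 pooled over the control mice was at 59.6 CPM in those T cells and 67.9 CPM in NKT-like cells. Whether these cells carry the invariant receptor was therefore not tested, and they are called NKT-like throughout.

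The start of Cxcr6 (ENSMUSG00000048521, GRCm38 chr9:123806477-123811754, plus strand) and of Xcl1 (ENSMUSG00000026573, chr1:164931644-164935522, minus strand) is shown because both genes were taken as markers of these cells. The 250 bases before each start, from RefSeq on GRCm38.p6, were searched on both strands for the core of RUNX sites (TGTGGT, or ACCACA on the other strand) and of T-box sites (TCACACC, or GGTGTGA), and matches are in capitals.
Cxcr6, chr9:123806227-123806476, plus strand: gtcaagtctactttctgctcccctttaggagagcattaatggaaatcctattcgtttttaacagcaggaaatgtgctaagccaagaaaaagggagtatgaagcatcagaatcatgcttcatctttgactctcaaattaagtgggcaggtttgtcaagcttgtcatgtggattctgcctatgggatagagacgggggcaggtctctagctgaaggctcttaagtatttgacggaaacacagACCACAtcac
Xcl1, chr1:164935523-164935772, minus strand: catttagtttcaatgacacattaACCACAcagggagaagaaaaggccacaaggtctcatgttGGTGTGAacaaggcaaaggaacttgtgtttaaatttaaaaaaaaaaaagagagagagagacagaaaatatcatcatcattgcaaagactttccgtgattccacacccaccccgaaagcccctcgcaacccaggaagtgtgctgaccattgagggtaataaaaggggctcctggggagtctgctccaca
The Cxcr6 window held 1 RUNX match, 10 bases before the start, and no T-box match. The Xcl1 window held 1 RUNX match 227 bases and 1 T-box match 188 bases before the start. Over 32851 windows of the same length, 14.1% held the RUNX letters and 3.33% the T-box letters, and a match is a run of letters and no evidence of binding.

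Several libraries stood apart, and these values come before the results because they bear on them. The control libraries held 36699315 and 6135827 UMIs in all, and the NASH libraries 46275590 to 64855024. Over all kept cells the mitochondrial gene mt-Nd3 stood at 3.10 and 4.52 CPM in the control libraries and at 521 to 1402 CPM in the NASH libraries, and in NKT-like cells the predicted gene Gm28438 was at 408 and 211 CPM in the control mice and listed at 0 in all NASH mice. The control and the NASH libraries therefore form separate sets, and library set and disease cannot be told apart. HFD+F+CCl4 replicate 1 and WD+F+CCl4 replicate 3 had high immediate-early genes: Jun in NKT-like cells was at 957 and 697 CPM there and at 51 to 185 CPM in the other 6 mice. Transcripts of hepatocytes and of B cells also differed between the sets. Albumin (Alb), the main hepatocyte transcript, stood over all kept cells at 1823 and 1895 CPM in the control mice and at 42.3 to 664 CPM in the NASH mice, and the immunoglobulin light chain Igkc had a UMI in 59.2% and 86.9% of control NKT-like cells and in 2.74% to 38.2% of those of NASH mice. Shared barcodes were at most 0.552% of the smaller library for any pair of mice, and no NKT-like cell had one.

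NKT-like cells were a larger share of the kept cells in both control mice than in any NASH mouse. They made up 10.8% of cells in control replicate 1 (1162 of 10788; 95% exact Clopper-Pearson interval 10.2 to 11.4%) and 2.57% in control replicate 2 (107 of 4168; 2.11 to 3.09%). In the HFD+F+CCl4 mice the shares were 0.277%, 0.751% and 0.657% (31 of 11179, 76 of 10123 and 70 of 10654), and in the WD+F+CCl4 mice 0.917%, 0.741% and 0.265% (110 of 11999, 73 of 9846 and 31 of 11717). The control mice averaged 6.67% and the NASH mice 0.601%, and the groups did not overlap, though the control mice differed from each other by more than the NASH mice did. Control replicate 1 alone held 70% of all the NKT-like cells.

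The order of the groups was the same against T cells. NKT-like cells were 37.3% and 29.1% of the cells that passed the CD3, Cd79a, Csf1r and Trdc limits in the control mice, 14.1%, 8.71% and 7.03% under HFD+F+CCl4, and 17.4%, 9.59% and 2.84% under WD+F+CCl4. The limit of no Csf1r UMI, a macrophage gene, touched the groups unequally: of the cells with CD3 and Klrb1c, 117 and 16 held a Csf1r UMI in the control mice (beside 1162 and 107 NKT-like cells), 17, 34 and 28 under HFD+F+CCl4 (beside 31, 76 and 70), and 46, 37 and 11 under WD+F+CCl4 (beside 110, 73 and 31). The limit of no Cd79a UMI fell mostly on the control mice. It took out 317 and 43 cells with CD3 and Klrb1c there, 0, 1 and 0 under HFD+F+CCl4, and 11, 2 and 1 under WD+F+CCl4. The Trdc limit took out 244 and 8 in the control mice, 7, 9 and 10 under HFD+F+CCl4, and 15, 12 and 6 under WD+F+CCl4. The part of these limits in the shares was not tested. Intervals cover counting error only.

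**Figure D1:**
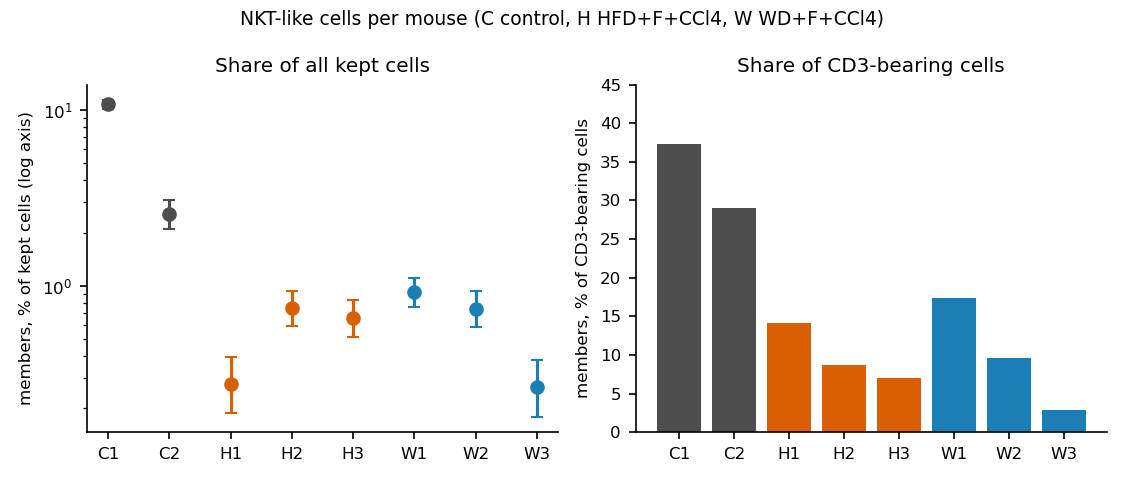
NKT-like cells in each of the 8 mice, as a percentage of all kept cells on a log axis with 95% exact binomial intervals (left) and as a percentage of CD3-bearing cells as bars from 0 (right). Both control mice lie above all 6 NASH mice in either panel, at 10.8% and 2.57% against 0.265% to 0.917% of kept cells.

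The gate cut through a continuous range of counts. Cells with exactly 1 Klrb1c UMI were 51.0% to 74.2% of the NKT-like cells of a mouse, and the median CD3 sum was 10, 5, 5, 7, 8, 7.5, 6 and 6 UMIs in the order of mice above. Igkc, a transcript of another cell type, was in a larger share of these cells in the control mice, as given above. The part of stray Klrb1c or CD3 RNA in the number of NKT-like cells was not tested. Just inside the limit, with a CD3 sum of 3, were 61 and 26 cells in the control mice and 2 to 12 in the NASH mice, and just outside it, with a sum of 2, were 73 and 52 cells and 1 to 9 cells. The median depth of all NKT-like cells was 3294.5 and 2076 UMIs a cell in the control mice and 2360 to 3030 in the NASH mice. Scrublet, a doublet caller whose scores were used by rank, placed 6.28% and 1.87% of the control NKT-like cells and 0% to 12.9% of those of a NASH mouse in its top share, and these cells were kept. Cells over 2 times the T cell UMIs were 15.7% and 35.5% of control NKT-like cells, against 9.42% and 16.5% of control T cells. In the NASH mice they were 6.45% to 19.4% of NKT-like cells and 8.47% to 12.1% of T cells.

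To see what set NKT-like cells apart, their UMIs were summed per mouse and compared within the same mice with 6397 Klrb1c-negative T cells that passed the same limits and with 818 cells that had Klrb1c but no CD3 UMI, the NK class. A UMI of the NK receptor gene Ncr1 was found in 201 of 284 cells of this class in control replicate 1 but in 16 of 121 in control replicate 2, and in 47 of 78, 35 of 50 and 29 of 37 under HFD+F+CCl4 and 109 of 131, 47 of 69 and 37 of 48 under WD+F+CCl4. The 7 genes that the rule used were left out of the tests. The test was edgeR's quasi-likelihood test with mouse as a term and Benjamini-Hochberg adjustment over all genes tested, and a gene was called at an adjusted p under 0.05. All fold changes are log2 values with their standard error (SE).

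Compared with Klrb1c-negative T cells, NKT-like cells had more transcripts of Klrc1, Klrc2, Klrk1, Il2rb, Id2 and Itga1, and fewer of Cd8a, Cd8b1, Foxp3 and Dapl1. In the control mice 75 of 8620 genes were called (0.87%), 19 higher (0.22%) and 56 lower (0.65%). In the NASH mice 418 were called (4.85%), 181 higher (2.1%) and 237 lower (2.75%). The higher genes were 43.3% of the NASH calls and 53.4% of those of DESeq2. Of the genes called higher in control mice, 13 were also called higher in NASH mice, which is 68.4% of the control and 7.18% of the NASH calls, and 43 lower genes were shared (76.8% and 18.1%).

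Among the genes that were higher in NKT-like cells than in T cells of the control mice, Klrc2, which encodes the activating receptor NKG2C, had the smallest adjusted p. NKT-like cells had 169 and 142 CPM in the control mice, 258, 131 and 121 CPM in the HFD+F+CCl4 mice and 173, 120 and 130 CPM in the WD+F+CCl4 mice. Klrb1c-negative T cells had 58.1 and 60.4 CPM, then 73.0, 40.8 and 30.4 CPM, then 51.7, 34.5 and 17.5 CPM. NKT-like cells were higher in 8 of 8 mice, by 1.45 (SE 0.20, edgeR adjusted p = 1.22e-06) in the control mice and by 1.90 (SE 0.16, edgeR adjusted p = 7.7e-14) in the NASH mice. Klrk1, the gene of the stress-ligand receptor NKG2D, was higher by 1.05 (SE 0.22, edgeR adjusted p = 0.0121) in the control and by 1.76 (SE 0.14, edgeR adjusted p = 6.63e-10) in the NASH mice, and Klrc1, the gene of the inhibitory NKG2A, by 1.15 and 1.60. Among all genes tested, 0.22% were higher in the control mice and 2.1% in the NASH mice. Of 15 genes of the killer cell lectin-like receptor and Ly49 families, 3 were higher and none lower in the control mice (median 0.99, against 0.01 over all genes), and 12 were higher and 1, Klrg1, lower in the NASH mice (median 2.13, against -0.01). Klrb1a, Klrb1b, Klrb1f and the Ly49 (Klra) genes among them are uncertain, since near-identical copies can share reads with each other and with Klrb1c.

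**Figure D2:**
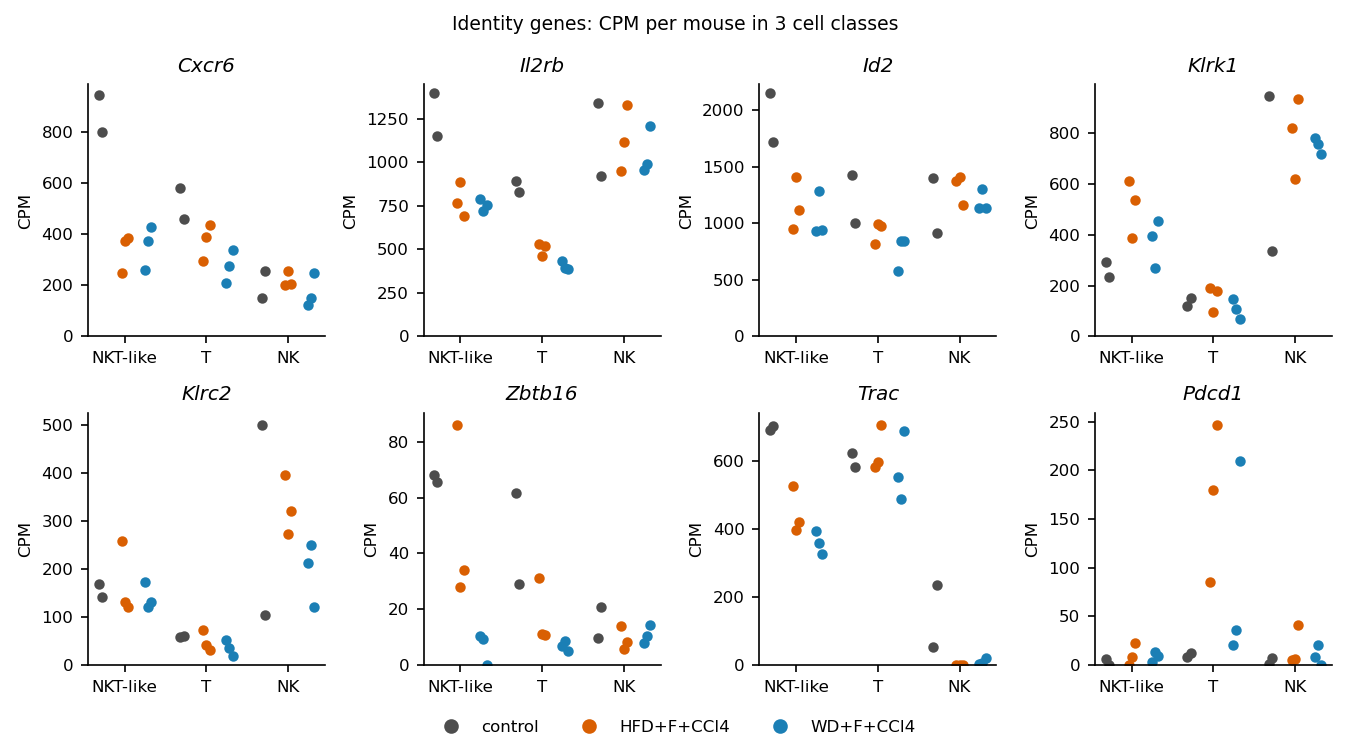
CPM per mouse of Cxcr6, Il2rb, Id2, Klrk1, Klrc2, Zbtb16, Trac and Pdcd1 in NKT-like cells, Klrb1c-negative T cells and the NK class, with 1 point a mouse. Klrc2 in NKT-like cells lies above Klrb1c-negative T cells in all 8 mice, and Cxcr6 in NKT-like cells is at 944 and 799 CPM in the control mice and at 247 to 428 CPM in the NASH mice.

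Il2rb, the receptor chain for interleukin-15, stood at 1396 and 1152 CPM in control NKT-like cells, at 763, 886 and 692 CPM in the HFD+F+CCl4 mice and at 787, 717 and 753 CPM in the WD+F+CCl4 mice. It was higher than in Klrb1c-negative T cells by 0.57 (SE 0.15, edgeR adjusted p = 0.0351) in the control mice and by 0.76 (SE 0.09, edgeR adjusted p = 4.74e-09) in the NASH mice. Id2, a regulator that innate-like lymphocytes need, was higher by 0.68 and 0.40, and Itga1, the CD49a integrin of resident lymphocytes, by 0.90 and 1.13. Among all genes tested against T cells, 0.87% were called in the control mice and 4.85% in the NASH mice. Of 9 tissue residency genes tested, Itga1 and Cxcr6 were higher and none lower in the control mice. In the NASH mice Itga1 was higher and Itgae and Prdm1 lower (median 0.11). In the NASH mice 6 of 10 type 1 effector genes were higher and none lower (median 0.71): Klrk1, Il12rb2, Xcl1, Tbx21, Cxcr3 and Fasl, the last of which was lost without 6 of the 8 mice in turn (fold change 0.55 to 0.71). Xcl1 was higher there by 1.03 (SE 0.18, edgeR adjusted p = 0.0104), a call lost without HFD+F+CCl4 replicate 2 (1.01, edgeR adjusted p = 0.0526), and Tbx21, the gene of T-bet, by 0.90 (SE 0.18, edgeR adjusted p = 0.00035). Of 6 type 2 genes tested, Il4 and Plac8 were higher and Maf and Icos lower in the NASH mice (median -0.19), and none was called in the control mice. Il4 was higher in NASH mice by 2.09 (SE 0.35, edgeR adjusted p = 1.45e-05), at 43.0, 35.7, 11.3, 30.6, 55.2 and 27.9 CPM in NKT-like cells and 1.35 to 17.3 CPM in T cells.

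Of 10 cytotoxic granule genes tested against Klrb1c-negative T cells, none was called in the control mice, where 0.87% of all genes were, and 1, the cathepsin Ctsw, was higher in the NASH mice, where 4.85% were (median -0.26). Gzmb, the gene of granzyme B, stood at 76.6 and 309 CPM in control NKT-like cells and at 75.3 to 576 CPM in those of NASH mice. Ncr1, the NK receptor NKp46, was higher than in T cells by 2.18 (SE 0.43) and 4.99 (SE 0.48), with edgeR adjusted p = 0.00168 and 7.05e-12, but its level in NKT-like cells was only 9.20 to 83.6 CPM against 158 to 766 CPM in the NK class.

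Cd8a, which marks the CD8 T cell class, was lower by 1.90 in the control mice (log2 fold change -1.90, SE 0.27, edgeR adjusted p = 0.000188) and by 2.01 in the NASH mice (-2.01, SE 0.17, edgeR adjusted p = 9.91e-09), and Cd8b1 changed by -2.66 and -2.61. The regulatory T cell factor Foxp3 changed by -4.24 (SE 0.49) in the control and -1.52 (SE 0.27) in the NASH mice, with edgeR adjusted p = 2.97e-08 and 6.36e-05. Dapl1, a marker of naive-like T cells, changed by -3.30 and -4.46. Of 9 CD4 and regulatory genes, 3 were lower in the control mice and 5 in the NASH mice with none higher, and of 10 cell cycle genes 2 and 5 were lower with none higher. Among all genes tested, 0.65% were lower in the control mice and 2.75% in the NASH mice.

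The checkpoint receptor Pdcd1 (PD-1) was lower than in T cells in the NASH mice. In NKT-like cells it stood at 5.84 and 0 CPM in the control mice, 0, 7.94 and 22.7 CPM in the HFD+F+CCl4 mice and 2.55, 13.8 and 9.30 CPM in the WD+F+CCl4 mice. In Klrb1c-negative T cells the values were 8.24 and 12.5 CPM, then 85.7, 180 and 247 CPM, then 20.8, 35.7 and 209 CPM. All 6 NASH mice had more Pdcd1 in T cells than either control mouse did, whereas in NKT-like cells the groups overlapped. The fold change was -0.68 (SE 0.39, edgeR adjusted p = 0.977) in the control and -3.56 (SE 0.30, edgeR adjusted p = 9.6e-14) in the NASH mice, and the difference between these was itself called (-2.87, SE 0.56, edgeR adjusted p = 0.0152), a value that turned to 3.04 (edgeR adjusted p = 1) without control replicate 1. The checkpoint genes Ctla4 and Havcr2 and the transcription factor Tox were lower in NKT-like cells of NASH mice as well. Of 9 genes tested of the list that holds them, 4 were lower and 1, Cd160, higher in these mice (median -1.24). Among all genes tested, 2.75% were lower and 2.1% higher there.

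Only 4 of 8620 genes (0.0464%) were called for a difference between NASH and control mice in how NKT-like cells compared with T cells, 1 upward (0.0116%) and 3 downward (0.0348%). At an unadjusted p under 0.05 there were 343, and DESeq2 called 0. Besides Pdcd1 they were Maf, Galm and Klra1, of which Galm was named after its values were seen. Maf, a transcription factor of type 2 and regulatory cells, stood at 377 and 294 CPM in control NKT-like cells and 308 and 313 CPM in control T cells, and in each NASH mouse it was lower in NKT-like cells, at 301, 218, 140, 84.0, 115 and 567 CPM against 761, 313, 336, 205, 267 and 893 CPM. Its difference was -1.16 (SE 0.20, edgeR adjusted p = 0.00349), and -0.93 (edgeR adjusted p = 0.763) without control replicate 1. All 3 named calls of this difference, those on Pdcd1, Maf and Klra1, were also lost with at least 5 CD3 UMIs and without mouse as a term.

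Of the 26 named genes called against T cells in the control mice, 17 were lost under DESeq2 and 26 without mouse as a term. The control side of this comparison also rests on 1 library. Without control replicate 1, none of the 26 named genes called against T cells in the control mice stayed called, and 0 genes were called in all, with Klrc2 at 1.23 (edgeR adjusted p = 0.863) and Il2rb at 0.48 (edgeR adjusted p = 0.996). Cxcr6, Id2 and Il2rb were also lost without control replicate 2, at 0.68, 0.58 and 0.62, and Il2rb without WD+F+CCl4 replicate 1, at 0.56. Of the 86 named calls in NASH mice, 3 were lost without control replicate 1, 20 without HFD+F+CCl4 replicate 2, 26 after thinning each cell to 1000 UMIs, and 52 without mouse as a term.

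**Figure D3:**
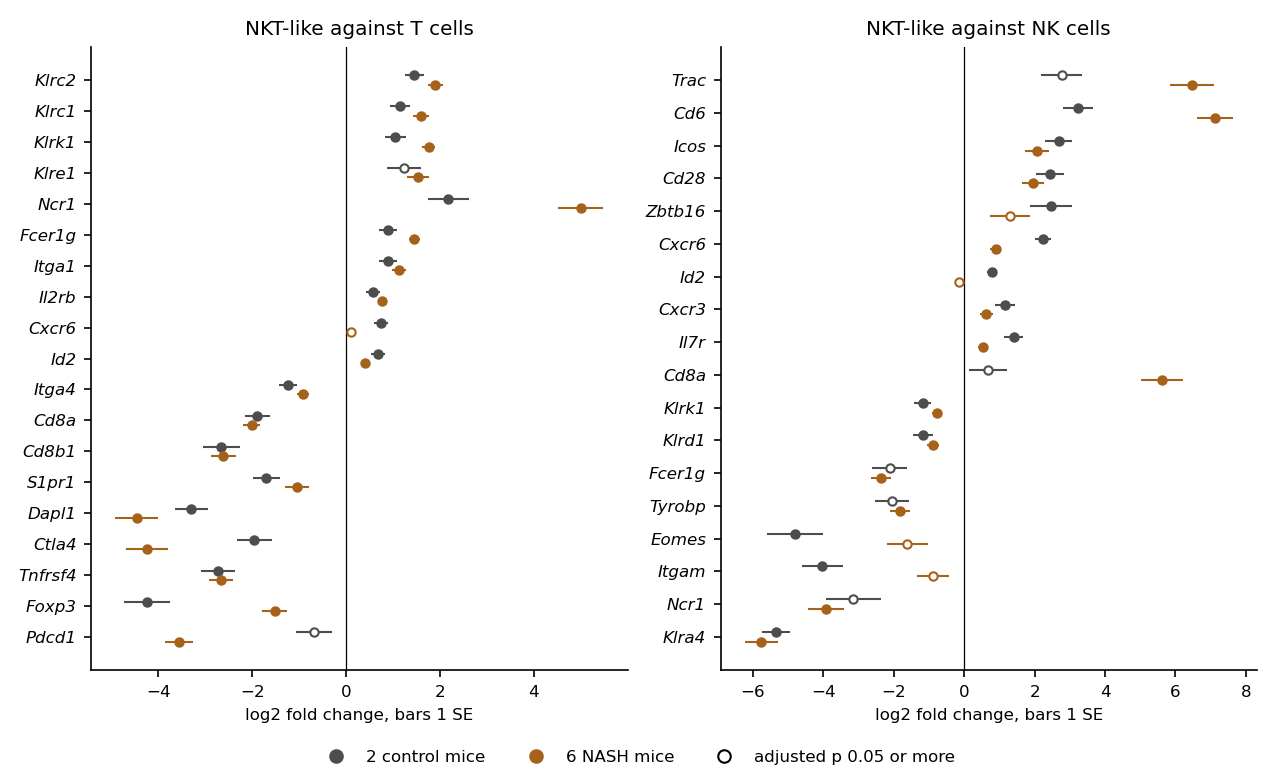
Log2 fold changes of NKT-like cells against Klrb1c-negative T cells and against the NK class, with bars of 1 SE, in the 2 control mice (grey) and the 6 NASH mice (brown). Open points had an edgeR adjusted p of 0.05 or more, and Pdcd1 against T cells lies at -0.68 in the control and -3.56 in the NASH mice.

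Compared with the NK class, NKT-like cells had more transcripts of Cxcr6, Cd40lg, Icos and Cd28 and fewer of Klra4, Klre1 and Klrd1. In the control mice 237 of 5726 genes were called (4.14%), 133 higher (2.32%) and 104 lower (1.82%). In the NASH mice 317 were called (5.54%), 183 higher (3.2%) and 134 lower (2.34%). Under DESeq2 the higher genes were 68.7% of the control calls against 56.1% here. Higher T cell receptor genes, such as Trac in the NASH mice (6.48, SE 0.63), belong to the same complex that the rule used and are no finding.

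Cd40lg, Il4, Icos and Cd28 were higher as well, while Lck and Tcf7 were called in neither group (0.12 and -0.10 in the control mice, 0.25 and 0.13 in the NASH mice). Cd40lg, the CD40 ligand with which T cells help B cells and macrophages, was at 96.0 and 87.2 CPM in control NKT-like cells and at 21.5 to 65.1 CPM in those of NASH mice. The NK class had 2.79 and 13.7 CPM in the control mice and no UMI in the NASH mice, so that the NASH level in NKT-like cells was at least 14.6-fold higher, against a floor of 3 counts over the group. Il4 likewise had no UMI in the NK class of the NASH mice and was at least 14.6-fold higher in NKT-like cells. The co-stimulatory receptor Icos was higher by 2.69 (SE 0.38, edgeR adjusted p = 8.23e-06) in the control and 2.08 (SE 0.34, edgeR adjusted p = 3.52e-05) in the NASH mice, and Cd28 by 2.43 and 1.96. Of 56 named genes called against the NK class in the control mice, 52 were lost without control replicate 1, Icos (2.31, edgeR adjusted p = 0.371) and Cd40lg (2.65, edgeR adjusted p = 0.709) among them.

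Of 13 NK cell genes, 5 were lower in the control mice and 6 in the NASH mice with none higher (medians -3.15 and -2.36, against -0.02 and 0.00 over all genes). Among all genes tested, 1.82% were lower in the control mice and 2.34% in the NASH mice. Klra4, a Ly49 receptor, changed by -5.35 (SE 0.41, edgeR adjusted p = 2.37e-12) and -5.77 (SE 0.46, edgeR adjusted p = 2.01e-12), and Fcer1g, an adaptor of NK receptors, by -2.36 (SE 0.29, edgeR adjusted p = 0.005) in the NASH mice. Eomes, a transcription factor of circulating NK cells, was at 7.10 and 3.63 CPM in control NKT-like cells against 217 and 55.0 CPM in the NK class. Klrk1 lay between the other classes, at 293 and 236 CPM in control NKT-like cells, 121 and 152 CPM in T cells and 949 and 337 CPM in the NK class.

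Xcl1 set NKT-like cells apart from the NK class in the NASH mice. The NK class had 627 and 351 CPM in the control mice and 1471, 2758, 2451, 2889, 3411 and 3359 CPM in the NASH mice. NKT-like cells were lower by 2.26 in the NASH mice (-2.26, SE 0.24, edgeR adjusted p = 0.00213) and not called in the control mice (-0.24, SE 0.40, edgeR adjusted p = 0.967). The difference between these, -2.02 (SE 0.47), was not called (edgeR adjusted p = 0.275).

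Cxcr6 was highest in the NKT-like cells of control mice. NKT-like cells had 944 and 799 CPM in the control mice, 247, 373 and 386 CPM in the HFD+F+CCl4 mice and 260, 372 and 428 CPM in the WD+F+CCl4 mice. The NK class had 152 and 254 CPM, then 202, 254 and 205 CPM, then 122, 151 and 249 CPM, and Klrb1c-negative T cells had 580 and 459 CPM, then 294, 387 and 437 CPM, then 207, 276 and 337 CPM. NKT-like cells were the highest of these classes in both control mice, and in the NASH mice their range overlapped that of T cells. Against the NK class the fold change was 2.24 (SE 0.24, edgeR adjusted p = 2.97e-08) in the control and 0.89 (SE 0.15, edgeR adjusted p = 6.5e-05) in the NASH mice, with a difference of -1.35 (SE 0.28, edgeR adjusted p = 0.00989) that was lost without control replicate 1 (-0.80, edgeR adjusted p = 0.804). Against T cells it was 0.75 (SE 0.15, edgeR adjusted p = 0.00284) and 0.11 (SE 0.10, edgeR adjusted p = 0.686), with a difference of -0.63 (SE 0.18) that did not pass (edgeR adjusted p = 0.275).

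The difference between NASH and control mice against the NK class was called for 38 of 5726 genes (0.664%), 27 upward (0.472%) and 11 downward (0.192%). The upward genes were 71.1% of these calls and 57.1% of those of DESeq2, which called 7. The upward differences that were largest were those of Cd8b1 (5.46), Cox6a2 (5.11), which encodes a subunit of cytochrome c oxidase, and Cd8a (4.94). In the NASH mice the NK class had 2 UMIs of Cd8a and 1 of Cd8b1, so that NKT-like cells were 61.1-fold (95% counting interval 16.6 to 510) and 93.7-fold (16.4 to 3741) higher. In the control mice Cd8a was at 11.1 and 34.4 CPM in the NK class, and T cell genes were higher there as well, with Trac at 82.3 CPM over the pooled control mice against 4.44 CPM over the NASH mice and Cd6 at 12.7 against 0.74 CPM. Cox6a2 was called together with Siglech (3.70), Bst2 (1.43) and Ccr9 (2.61), which plasmacytoid dendritic cells also express. Siglech in the NK class was at 169 and 399 CPM in the control mice and at 0 to 43.4 CPM in the NASH mice. The part of T cells or plasmacytoid dendritic cells in these differences was not tested. The downward genes included the integrin Itgb3, with fold changes of 1.72 in the control and -0.84 in the NASH mice (difference -2.56), and the adhesion receptor Cd226, with 1.41 and -0.02 (difference -1.44). Without control replicate 1 the calls on Cd8a (4.99), Itgb3 (-1.24) and Cd226 (-1.55) were lost. Of the 17 named calls of this difference, 11 were lost without control replicate 1, 15 under DESeq2, 17 without mouse as a term, and 8 when the NK class was limited to cells with Ncr1, which left out control replicate 2. Under that limit 12 of the 56 named calls in the control mice were lost too.

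Within NKT-like cells, the chemokine receptors Cxcr6, Ccr2 and Ccr9 were lower in NASH than in control mice, Bcl2, Il7r, Ltb and Tgfb1 were higher, and genes of other cell types differed too. The test was edgeR's quasi-likelihood test on the UMI sums of the 6 NASH and 2 control mice, and 215 of 5244 genes were called (4.1%), 107 higher (2.04%) and 108 lower (2.06%), with a median change of -0.01 over all genes. Without scaling for composition, 38.6% of the calls were higher against 49.8% here. DESeq2 called 150 genes, 59.3% of them higher, and without a filter on low counts 29.3% of 389 calls were higher. For 785 genes (15.0%) the 6 NASH mice did not overlap the control mice. With 2 control mice, 1 of them at a total of 275258 UMIs in these cells against 4791958 in the other, each control value carries unequal depth.

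Of 7 chemokine receptors tested, Cxcr6, Ccr2 and Ccr9 fell and none rose (median -0.81). Among all genes tested, 2.06% were called lower and 2.04% higher. Cxcr6, which binds CXCL16 on sinusoidal endothelium, changed by -1.26 (SE 0.21, edgeR adjusted p = 0.000175), with all 6 NASH mice below both control mice, and no left-out mouse changed the call. Ccr2, the receptor for CCL2, stood at 289 and 320 CPM in the control mice, 118, 123 and 166 CPM in the HFD+F+CCl4 mice and 107, 115 and 149 CPM in the WD+F+CCl4 mice. It changed by -1.14 (SE 0.21, edgeR adjusted p = 0.000742), again without overlap. Ccr9, a gut-homing receptor whose start lies 39266 bases from that of Cxcr6, was at 126 and 251 CPM in the control mice, 10.8, 31.8 and 30.2 CPM in the HFD+F+CCl4 mice and 94.2, 106 and 121 CPM in the WD+F+CCl4 mice. It changed by -1.61 (SE 0.28, edgeR adjusted p = 0.000419). Plasmacytoid dendritic cells also express Ccr9, and their marker Siglech, chosen after its values were seen, was at 56.6 and 149 CPM in NKT-like cells of the control mice, 0, 23.8 and 7.56 CPM under HFD+F+CCl4 and 125, 87.4 and 205 CPM under WD+F+CCl4. With the diets set against each other, the fold changes of WD+F+CCl4 mice were 1.94 for Ccr9, 3.34 for Siglech, 3.14 for Cox6a2 and 1.03 for Bst2, none of them called by edgeR and Siglech called by DESeq2, and the part of these cells in the change of Ccr9 was not tested.

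Bcl2, Il7r, Ltb and Tgfb1 rose. Bcl2, which blocks apoptosis, was at 343 and 258 CPM in the control mice, 731, 858 and 820 CPM in the HFD+F+CCl4 mice and 914, 699 and 651 CPM in the WD+F+CCl4 mice, a change of 1.45 (SE 0.24, edgeR adjusted p = 0.000209). Il7r, the interleukin-7 receptor that sustains memory T cells, was at 302 and 243 CPM and then at 344 to 805 CPM, a change of 0.96 (SE 0.23, edgeR adjusted p = 0.0109). Neither gene overlapped between groups. Ltb, lymphotoxin beta, rose by 1.29 (SE 0.24, edgeR adjusted p = 0.000655) from 367 and 265 CPM to 634 to 839 CPM, and Tgfb1, the fibrosis-linked cytokine, by 1.24 (SE 0.25, edgeR adjusted p = 0.00198) from 94.1 and 58.1 CPM to 127 to 226 CPM. Calls on Il7r (0.79, edgeR adjusted p = 0.239) and Ltb (1.06, edgeR adjusted p = 0.0528) were lost without control replicate 2.

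Ccl5, Cd8a and 3 lectin-like receptors rose, and Cd4 fell. Ccl5, the chemokine RANTES made by memory and killer lymphocytes, stood at 2213 and 2543 CPM in the control mice, 4644, 4166 and 5376 CPM in the HFD+F+CCl4 mice and 5491, 5109 and 3441 CPM in the WD+F+CCl4 mice, and rose by 1.09 (SE 0.26, edgeR adjusted p = 0.00994), a call lost when either control mouse (1.07 and 1.14) or HFD+F+CCl4 replicate 3 (1.02) was left out. Of 9 lectin-like and Ly49 receptors, Klrk1, Klre1 and Klra7 rose and none fell (median 0.56, with 2.04% of all genes called higher). Klrk1 was the weakest of these (0.77, SE 0.23, edgeR adjusted p = 0.0496) and was lost without 6 of the 8 mice in turn (0.61 to 1.05), and Klre1 (0.86 to 1.15) and Klra7 (1.78 to 2.21) were lost without 4 mice each, both control mice among them. Cd8a rose by 1.88 (SE 0.38, edgeR adjusted p = 0.00309), from 19.8 and 43.6 CPM to 37.2 to 151 CPM with overlap, and the share of thinned cells with Cd8a or Cd8b1 overlapped too (2.33% and 10.4% against 2.63% to 14.3%, exact permutation p = 0.607), while Cd4 fell by 1.42 on the log2 scale (SE 0.35, edgeR adjusted p = 0.013). Cd8a was lost without control replicate 1 (1.19, edgeR adjusted p = 0.314), and Cd4 without control replicate 2 (-1.16) or WD+F+CCl4 replicate 1 (-1.20). No granule gene was called among 8 tested, where 4.1% of all genes were, so this count sets granule genes apart from no others.

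Tox, a factor of chronically stimulated T cells, rose by 1.87 (SE 0.31, edgeR adjusted p = 0.000218), from 27.1 and 25.4 CPM to 53.8 to 119 CPM. The serpin Serpina3g, named after its values were seen, rose by 1.90 (SE 0.24, edgeR adjusted p = 2.84e-06) from 95.2 and 83.6 CPM to 366, 334 and 371 CPM in the HFD+F+CCl4 mice and 354, 258 and 232 CPM in the WD+F+CCl4 mice. Neither overlapped between groups, and Tox stayed called without each mouse in turn. The ion channel genes Tmem176a and Tmem176b, which share their start region (109 bases apart) and are often high in type 17 lymphocytes, rose by 2.25 (SE 0.26, edgeR adjusted p = 9.34e-07) and 1.86 (SE 0.32, edgeR adjusted p = 0.00183), the latter lost without control replicate 1 (1.45, edgeR adjusted p = 0.0605). They were the only genes of the type 17 list of 10 that passed the filter on low counts.

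**Figure D4:**
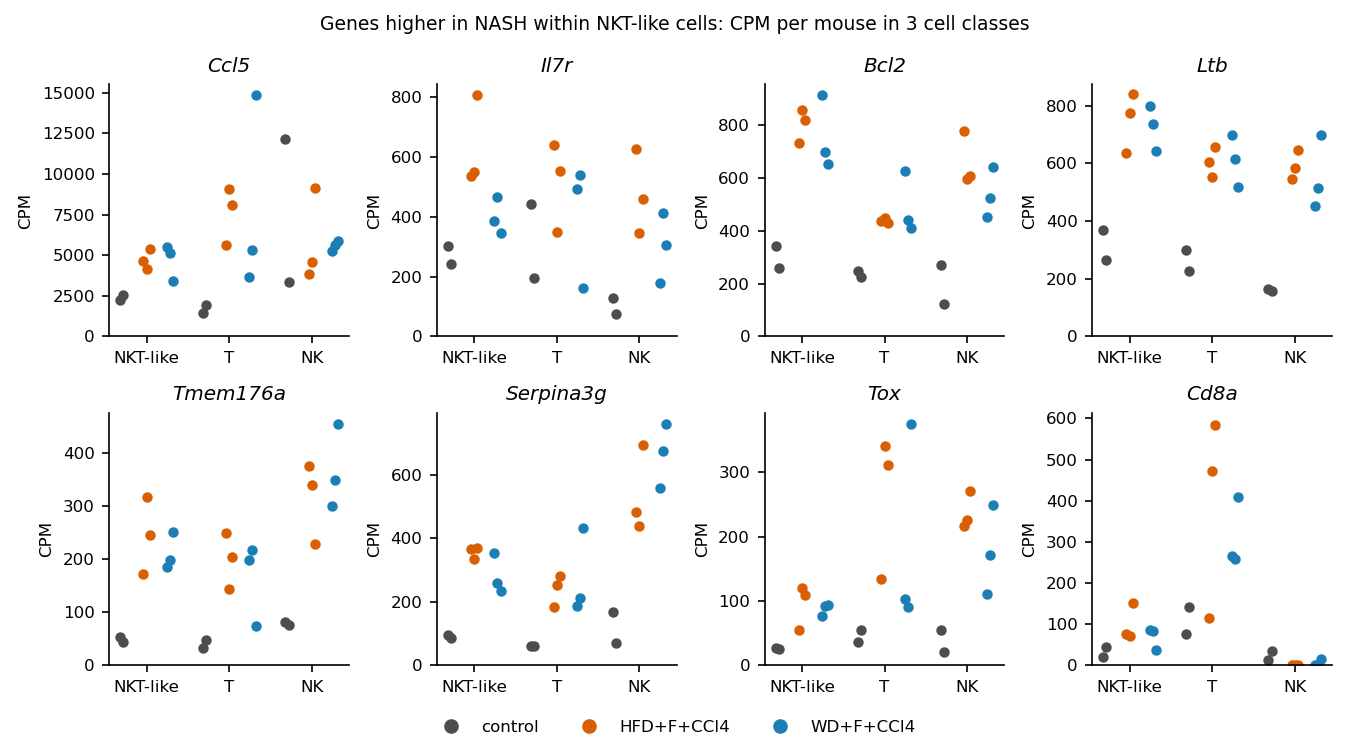
CPM per mouse of Ccl5, Il7r, Bcl2, Ltb, Tmem176a, Serpina3g, Tox and Cd8a in NKT-like cells, Klrb1c-negative T cells and the NK class, with 1 point a mouse. Bcl2 in NKT-like cells is at 343 and 258 CPM in the control mice and 651 to 914 CPM in the NASH mice, and the other classes also have higher Bcl2 in the NASH mice.

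Icos, Cd40lg, Zbtb16, Igtp and Gbp4 fell. Icos, a costimulatory receptor, changed by -1.02 (SE 0.26, edgeR adjusted p = 0.0183) and Cd40lg by -1.42 (SE 0.32, edgeR adjusted p = 0.00654), the latter from 96.0 and 87.2 CPM to 21.5, 27.8 and 26.5 CPM in the HFD+F+CCl4 mice and 22.9, 50.6 and 65.1 CPM in the WD+F+CCl4 mice. Without control replicate 1 neither stayed called (-0.41 and -1.22), and Icos was also lost without WD+F+CCl4 replicate 1 (-0.94) and without HFD+F+CCl4 replicate 2 (-0.98). Il4 was at 60.5 and 102 CPM and then at 11.3 to 55.2 CPM without overlap, and was not called (-1.13, SE 0.36, edgeR adjusted p = 0.0774). Zbtb16 changed by -1.76 (SE 0.40, edgeR adjusted p = 0.00718), though HFD+F+CCl4 replicate 1 stood above both control mice, and the call was lost without control replicate 1 (-1.58, edgeR adjusted p = 0.246). Of 9 invariant NKT identity genes tested, Zbtb16 was the only one called (median -0.41), where 4.1% of all genes were. The interferon-inducible GTPases Igtp and Gbp4 changed by -1.76 (SE 0.24, edgeR adjusted p = 1.46e-05) and -1.19 (SE 0.23, edgeR adjusted p = 0.00148), and both stayed called without each mouse in turn. Igtp was at 227 and 211 CPM in the control mice and 41.4 to 118 CPM in the NASH mice, and T cells of the control mice also had more of it (231 and 194 CPM against 40.4 to 64.1 CPM).

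These changes were set against T cells by the test of the difference. Of the 215 called genes, 0 were called for a difference between NKT-like and T cells in their NASH response, and 40 had an unadjusted p under 0.05. Over all 8620 genes of that test 4 were called (0.0464%) and 343 had an unadjusted p under 0.05. The same NKT-like counts enter both tests, so the 40 are no separate evidence. For Bcl2 the difference was 0.39 (SE 0.19), for Ltb 0.01 (SE 0.18), for Tmem176a -0.17 (SE 0.59), for Serpina3g -0.22 (SE 0.41) and for Cxcr6 -0.63 (SE 0.18), each with an edgeR adjusted p of 0.275 or more. No gene of the contrast within NKT-like cells is therefore shown to be particular to them.

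Genes of other cell types were among those called, where 2.04% of all genes were higher and 2.06% lower. Of 18 hepatocyte genes 15 were lower and none higher (median -3.56), and they summed to 4464 and 4952 CPM in control NKT-like cells against 550 to 5160 CPM in those of NASH mice, with Alb the most abundant in the control mice and Apoe in all 6 NASH mice. Fga, the fibrinogen alpha chain, had 453 UMIs in control NKT-like cells and 3 in those of NASH mice, a ratio of 39.5 (95% counting interval 13.4 to 193). All 3 B and plasma cell genes tested fell (Igkc -4.15, Jchain -6.89, Ighm -1.52), and their list of 8 summed to 2096 and 2452 CPM against 222 to 425 CPM. A single NKT-like cell of control replicate 1 held 4558 Igkc UMIs, and the next highest 102: without that cell Igkc there was at 325 CPM, against 1275 CPM with it. Of 9 macrophage genes C1qb, C1qc, Lgals3 and Cd68 rose and none fell (median 1.61). C1qb, a complement gene of Kupffer cells, was at 1.88 and 3.63 CPM in control NKT-like cells and 27.6 to 290 CPM in those of NASH mice. The T cells of NASH mice had 26.4 to 303 CPM and their NK class 19.7 to 395 CPM, and its difference from T cells was 0.11 (SE 0.67). Without control replicate 1 the calls on C1qb (4.80), C1qc (3.04), Cd68 (0.53) and Jchain (-4.94) were lost, and each of the first 3 was also lost without 1 or more other mice. The macrophage list of 12 summed to 289 and 1242 CPM in the control mice and 749 to 2193 CPM in the NASH mice, led by Lyz2, and the part of free RNA or of doublets in the called genes was not tested.

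**Figure D5:**
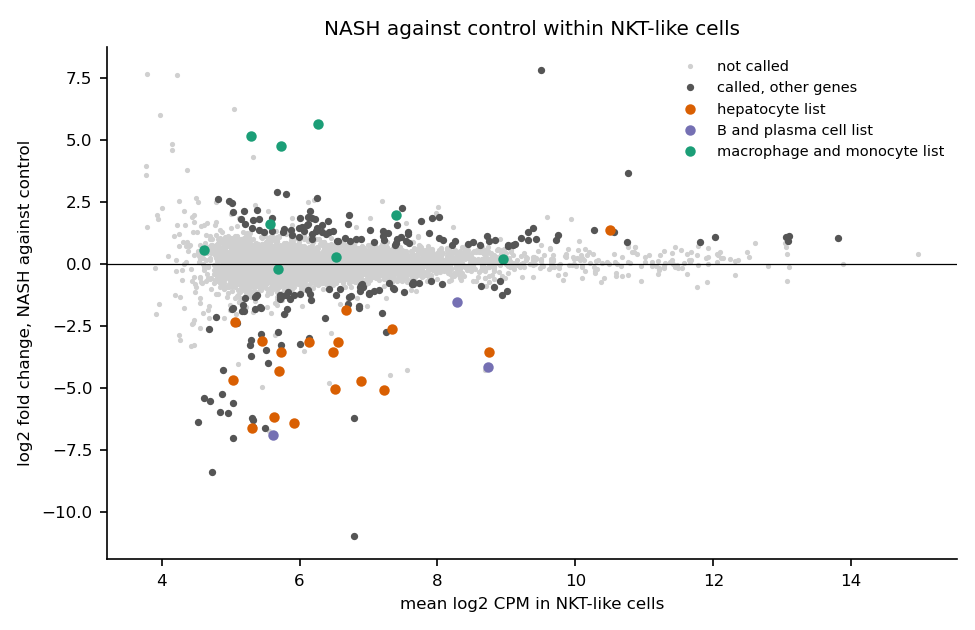
Log2 fold change of NASH against control mice within NKT-like cells for 5244 genes, against the mean log2 CPM, with called genes in black, others in grey, and the hepatocyte (orange), B and plasma cell (purple) and macrophage (green) lists coloured whether called or not. The hepatocyte gene Serpina1a stands at -6.60, and the macrophage genes C1qb and C1qc stand at 5.65 and 5.15.

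By diet, 72 genes were higher (1.37%) and 49 lower (0.934%) in HFD+F+CCl4 than in control mice, and 85 were higher (1.62%) and 89 lower (1.7%) in WD+F+CCl4 mice. Both comparisons share the 2 control mice. Cxcr6 changed by -1.27 (SE 0.24) under HFD+F+CCl4 and -1.25 (SE 0.24) under WD+F+CCl4, Bcl2 by 1.48 and 1.42, and Ccr9 by -2.58 (SE 0.38) and -0.64 (SE 0.30). Between the diets themselves 1 gene was called (0.0191%), the hepatocyte lipoprotein gene Apoa2, lower in WD+F+CCl4 mice (-3.97, SE 0.65, edgeR adjusted p = 0.00676), with 250 genes at an unadjusted p under 0.05 and 4 called by DESeq2. The call on Apoa2 was lost without HFD+F+CCl4 replicate 2 (-3.96, edgeR adjusted p = 0.0907), under DESeq2, after thinning, and without both mice of high immediate-early genes. The 4 genes of DESeq2, named here after their values were seen, were Siglech, Mef2c, Ly6d and Tcf4, all higher in WD+F+CCl4 mice, and are known from plasmacytoid dendritic cells and B cells. Ccr9 and Zbtb16 were not called between the diets by either tool.

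The share of NKT-like cells with a UMI of a gene was compared after each cell was thinned to 1000 UMIs, which left out 2 and 11 cells of the control mice. By an exact two-sided permutation test over the 28 splits of 8 mice, whose smallest p is 0.0357, 3 of 20 markers reached that p and none passed Benjamini-Hochberg adjustment (adjusted p = 0.238). Cxcr6 was found in 57.6% and 52.1% of control NKT-like cells and in 25.8%, 36.8%, 37.1%, 23.6%, 32.9% and 41.9% of those of the NASH mice (75.7% to 86.6% and 45.2% to 68.4% without thinning). In B cells (at least 2 Cd79a UMIs), which should lack it, the mean share was 8.89% in the control and 0.192% in the NASH mice, at median depths of 1510 to 2253 UMIs. Il7r was found in 22.8% and 17.7% against 35.5% to 42.9% (39.3% to 47.7% and 51.6% to 72.9% without thinning, B cells 3.47% and 0.246%), and Cd4 in 6.55% and 11.5% against 0% to 3.95% (15.9% to 20.8% and 3.64% to 12.9% without thinning, B cells 1.35% and 0.0308%). The groups did not overlap for these 3 markers or for Eomes, which was found in 0.776% and 0% of control NKT-like cells and in 1.43% to 6.45% of those of the NASH mice (exact permutation p = 0.107).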

How the data were processed

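Single-cell libraries of whole liver (10x Genomics 3' kit, V3, 1 library a mouse) were taken as the UMI counts per gene and barcode that the authors deposited, made with bcl2fastq 2.20 and Cell Ranger on GRCm38 per the labels and the methods, with 55450 genes and 88581 barcodes in 1 table. Barcodes were assigned to mice by their suffix, and nothing in the sources says how litters, days or extractions were shared. The members, the 33 gene lists and the comparisons were chosen with earlier results of these data known.

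Counts were summed per mouse and class, 7 rule genes were set aside, and genes were filtered with filterByExpr (minimum count 10), scaled by TMM and tested with edgeR 4.0.16 (limma 3.58.1, R 4.3.3; robust quasi-likelihood), with DESeq2 1.42.0 as an alternative. A class needed 20 cells in a mouse. Comparisons between classes had mouse as a term, with NASH and control effects and their difference from 1 fit. In simulated counts where 200 genes had a log2 change of 2, the NASH against control test recovered 96.4% of the changed genes that were tested, over 5158 genes. Beside these 163 genes it made 14 false calls, and DESeq2 recovered 84.6% with 6 false calls. Changes smaller than 2, which many named genes have, and a difference between library sets were not simulated. Shares of cells were tested after thinning (seed 1) by counting all splits of the mice. This exact permutation test and that of scipy 1.17.1 differed in 0 of 50 simulated cases. Doublets were scored with Scrublet in scanpy 1.11.5 at 0.8% per 1000 barcodes and kept in the results. Numbers were handled in numpy 2.4.6 and pandas 2.3.3, and figures drawn in matplotlib 3.10.9.

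Named genes were the members of the lists, plus, among called genes with a mean log2 CPM over 5, the 10 largest rises and falls within NKT-like cells whose groups did not overlap and the 5 largest each way in the other comparisons, without predicted and mitochondrial genes. The alternatives covered normalization, filters, gate limits, doublets, thinning, diets and each mouse left out, and 1, leaving out both mice with high Jun and Fos, was chosen after seeing the data. The lists with no called gene in the NASH against control test were those of gamma-delta T, granule, immediate-early, heat shock, NF-kB, cell cycle, glycolysis, lipid, erythroid, neutrophil, endothelial and dendritic cell genes. Results that need items withheld from the text are not reported here.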

Additional observations from a re-analysis of the deposited data

Results flagged for a closer look

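Among the 6 NASH mice, 5 genes had 1 mouse far from the others in NKT-like cells. Cyp3a11, Jchain and Serpina1a stood at 3.97, 11.9 and 11.9 CPM in HFD+F+CCl4 replicate 2 and at 0 in the other 5 mice, and Mug1 and Apoh both stood at 32.3 CPM in HFD+F+CCl4 replicate 1. The share of thinned NKT-like cells with Zbtb16 was 6.45% in HFD+F+CCl4 replicate 1, and the share with Gzmb was 28.2% in WD+F+CCl4 replicate 1. These values rest on 1 UMI of Cyp3a11, on 3 UMIs each of Jchain, Serpina1a, Mug1 and Apoh, and on 2 of 31 cells for Zbtb16. These 7 came from 41 such checks, and how many chance alone would give was not tested.

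The effect of NASH differed between NKT-like cells and T cells for 4 genes, by the test of the difference itself, with Pdcd1 at -2.87 and Maf at -1.16. All 3 named calls of this difference were lost under DESeq2, with at least 5 CD3 UMIs and without mouse as a term, and 2 without control replicate 1, where Pdcd1 turned to 3.04. Between NKT-like cells and the NK class it differed for 38 genes, with Cd8b1 at 5.46, Cox6a2 at 5.11, Cd8a at 4.94, Cd6 at 3.90 and Cx3cr1 at 3.87 (-0.32 without control replicate 1) upward, and Itgb3 at -2.56, Asb2 at -2.27, Egr1 at -2.01, Rora at -1.59 and Cd226 at -1.44 downward. Of the 17 named calls of this difference, 11 were lost without control replicate 1, 15 under DESeq2 and 17 without mouse as a term.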

How the results depend on the processing

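The order of control above NASH mice in the share of NKT-like cells held in every setting run. The control mean was 6.67%, and was 13.7% with over 1000 genes a cell, 3.05% with at least 2 Klrb1c UMIs, 2.36% after thinning, and 2.57% to 10.8% with 1 control mouse left out. The NASH mean was 0.211% with at least 2 Klrb1c UMIs, 0.177% after thinning, and 0.538% to 0.669% with 1 mouse left out. For NASH against control the calls numbered 389 without a filter, 90 after thinning, 121 for HFD+F+CCl4 alone, 151 with the replicate number as a block, and 141 to 271 with 1 mouse left out. Of the 60 named calls for NASH against control, 15 were lost under DESeq2, 14 with the block, 17 for HFD+F+CCl4 alone and 11 after thinning. Between the diets the calls numbered 4 by DESeq2, 29 without a filter, 11 with the block, 2 with at least 5 CD3 UMIs, 0 after thinning, 0 without the high Jun and Fos mice, and 0 to 12 with 1 mouse left out.
Against T cells in control mice they numbered 14 by DESeq2, 130 without a filter, 49 with at least 5 CD3 UMIs, 3 without mouse as a term, that is without the pairing, 132 without the high Jun and Fos mice, and 0 to 127 with 1 mouse left out. In NASH mice they numbered 277 by DESeq2, 152 after thinning, 138 without the pairing, and 256 to 569 with 1 mouse left out. The difference gave 0 by DESeq2, 31 without a filter, 0 with at least 5 CD3 UMIs, 11 without Scrublet doublets, 19 without the deepest cells, 11 after thinning, 0 without the pairing, 19 without the high Jun and Fos mice, and 0 to 27 with 1 mouse left out.
Against the NK class in control mice they numbered 67 by DESeq2, 146 after thinning, 51 without the pairing, and 11 to 263 with 1 mouse left out. In NASH mice they numbered 187 by DESeq2, 147 after thinning, 174 without the pairing, and 223 to 347 with 1 mouse left out. The difference gave 7 by DESeq2, 64 without a filter, 19 after thinning, 0 without the pairing, and 22 to 45 with 1 mouse left out. With 1 mouse left out, Pdcd1 ran from -3.19 to 3.04 in the T cell difference, Tnfrsf9, Klra7 and Cx3cr1 from -1.61 to 0.33, -2.69 to 0.12 and -4.18 to 0.68 against the NK class in control mice, and Cx3cr1 from -0.32 to 4.55 in that difference, and each turned without control replicate 1. Cd5l turned to 1.50 against NK cells with Ncr1, where control replicate 2 had too few cells. The cause was not tested.
Of 5890 values of 317 named calls, 4896 kept their call, 988 lost it and 6 reversed. Deviations of same-numbered mice from their group means had correlations of -0.21 to 0.08. With 2 or 3 mice a group, these values cannot tell whether such mice shared a day, litter or extraction. With 2 control mice, 31 NKT-like cells in the smallest NASH sample and 1 shallow control library, depth limits what low genes can show.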

Other observations

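Transcripts of further cell types varied between single mice rather than between control and NASH mice, and none of their genes was called for NASH against control in NKT-like cells. The 6 neutrophil genes, led by S100a9 in 7 mice and by S100a8 in HFD+F+CCl4 replicate 1, summed to 330 and 1097 CPM in the control mice, 237, 326 and 3550 CPM in the HFD+F+CCl4 mice and 4526, 4295 and 74.4 CPM in the WD+F+CCl4 mice. Hemoglobin and other erythroid genes summed to 5711 CPM in control replicate 2 and to 9.30 to 258 CPM in the other mice. Sinusoidal and other endothelial genes summed to 1665 CPM in WD+F+CCl4 replicate 3, led by Dnase1l3, and to 13.8 to 741 CPM elsewhere.

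The granule genes of NKT-like cells summed to 3100 and 3615 CPM in the control mice and 3255 to 4722 CPM in the NASH mice, with overlap, and Nkg7 was the most abundant in all 8 mice. The immediate-early genes summed to 5375 CPM in HFD+F+CCl4 replicate 1, led by Junb, and to 2948 CPM in WD+F+CCl4 replicate 3, led by Jun, against 1039 to 1626 CPM in the other 6 mice.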
